A study of Mus musculus with 15 samples.

Results

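Genomic imprinting leaves a gene active from a single parental copy, and many genes under this control set the growth of the embryo, the placenta and fat tissue. Paternally expressed genes of this kind often promote growth and maternally expressed ones often restrain it. The 10 genes described here were taken by name, as the rows of the count table that carry the symbols H19, Igf2, Meg3, Dlk1, Peg3, Mest, Plagl1, Cdkn1c, Grb10 and Ndn. All 10 were found among the 18804 genes of the table, and all 10 passed the filter on low counts that left 14293 genes for testing. The lowest count of any of the 10 in any library was 39, for Peg3.

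The cells were cultured white adipocytes of C57BL/6J mice, derived from mesenchymal stem cells that the study's methods trace to the ears of wild-type animals. All groups received the same adipogenic mix of methylisobutylxanthine, dexamethasone, insulin and troglitazone and were harvested on day 16 of differentiation. Another passage of the study's methods names rosiglitazone in place of troglitazone. Cells of the day 0 group were kept at 37°C, and cooling to 31°C began on day 15 for the day 1 group and on day 4 for the day 12 group, so that time at 31°C and the stage at which cooling began cannot be told apart for the longest exposure. There were 5 libraries in each of 3 groups, 15 in all, with total counts from 64648178 to 133270973. The labels do not say whether replicates came from separate cultures or animals, so p-values measure only the spread between these libraries, which may be technical. Counts were not split by parental copy, and every value below is the sum over both.

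Short RNAs are encoded within several of these genes, and 6 of them are shown because their host genes moved most at 31°C. The mature sequences are from RefSeq (GRCm38.p6) with the seed, bases 2 to 8, in capitals. The miR-675 pair lies in an exon of H19 on the minus strand (chr7:142577078-142577133), the miR-483 pair in an intron of Igf2 on the minus strand (chr7:142654932-142654989), and the miR-335 pair in an intron of Mest on the plus strand (chr6:30741314-30741375). The 6 seeds all differed.
mmu-miR-675-5p: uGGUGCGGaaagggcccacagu
mmu-miR-675-3p: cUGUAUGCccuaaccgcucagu
mmu-miR-483-5p: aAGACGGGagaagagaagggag
mmu-miR-483-3p: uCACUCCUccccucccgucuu
mmu-miR-335-5p: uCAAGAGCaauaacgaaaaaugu
mmu-miR-335-3p: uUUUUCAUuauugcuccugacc
The count table gives 1 value per gene, so the levels below are those of the host genes and the mature miRNAs were not measured.

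The promoters of Mest and Peg3 are shown because Mest rose most and Peg3 had the largest fall at day 1 among the 10 genes. Each sequence runs from 250 bases before to 50 after a transcription start in RefSeq (GRCm38.p6), 5′ to 3′ on the gene's strand, with each CG dinucleotide, which reads the same on both strands and is where DNA methylation of imprinted promoters is found, in capitals.
Mest, chr6:30737800-30738099, plus strand: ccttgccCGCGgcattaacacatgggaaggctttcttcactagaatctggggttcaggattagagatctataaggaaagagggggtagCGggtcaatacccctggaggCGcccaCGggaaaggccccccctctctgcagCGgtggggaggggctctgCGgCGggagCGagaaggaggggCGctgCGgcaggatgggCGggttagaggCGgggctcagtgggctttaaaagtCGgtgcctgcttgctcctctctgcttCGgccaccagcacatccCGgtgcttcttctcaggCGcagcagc
Peg3, chr7:6730370-6730669, minus strand: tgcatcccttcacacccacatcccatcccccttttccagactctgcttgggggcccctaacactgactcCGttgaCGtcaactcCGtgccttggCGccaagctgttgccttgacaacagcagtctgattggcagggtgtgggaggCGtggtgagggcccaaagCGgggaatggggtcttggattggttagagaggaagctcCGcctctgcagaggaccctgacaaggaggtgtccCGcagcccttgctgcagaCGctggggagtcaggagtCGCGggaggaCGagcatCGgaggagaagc
The Mest window held 17 CG dinucleotides and the Peg3 window 13, against a median of 7 over 32851 promoter windows of 300 bases. Mest has 3 start windows in the RefSeq table, of which the other two held 17, at nearly the same position as the one shown, and 8 (chr6:30733256-30733555). Fewer were found in 68.6% of those windows than in the Mest window shown, and in 62.1% than in the Peg3 window. DNA methylation was not measured in these samples.

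Levels are given as CPM, the count of a gene per mega-count of the library, scaled by the trimmed mean of M values (TMM). A gene was called higher or lower when edgeR's quasi-likelihood test gave an adjusted p under 0.05, corrected over all 14293 genes, and the fold change was over 1.5. After 1 day at 31°C, 4 of the 10 genes were called lower (H19, Meg3, Peg3 and Cdkn1c), where 13.4% of all tested genes were, and 1 was called higher (Mest), where 7.71% of all were. After 12 days, 6 of 10 were called lower (H19, Igf2, Meg3, Dlk1, Peg3 and Cdkn1c), against 16.2% of all tested genes, and Mest alone was called higher, against 13%. Between day 1 and day 12, H19, Igf2 and Dlk1 were called lower, 3 of 10 against 8.53% of all, and Mest higher, 1 of 10 against 10.6%. The median log2 fold change of the 10 genes was -0.42 at day 1 and -0.77 at day 12, beside -0.01 and 0.01 over all genes tested. Between day 1 and day 12 it was 0.15, beside 0.01 over all genes, with 4 of the 10 below 0. The 10 genes were chosen with earlier results of these data known, so these counts and medians may partly reflect that choice. The day 1 and day 12 comparisons share the day 0 libraries.

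**Figure D1:**
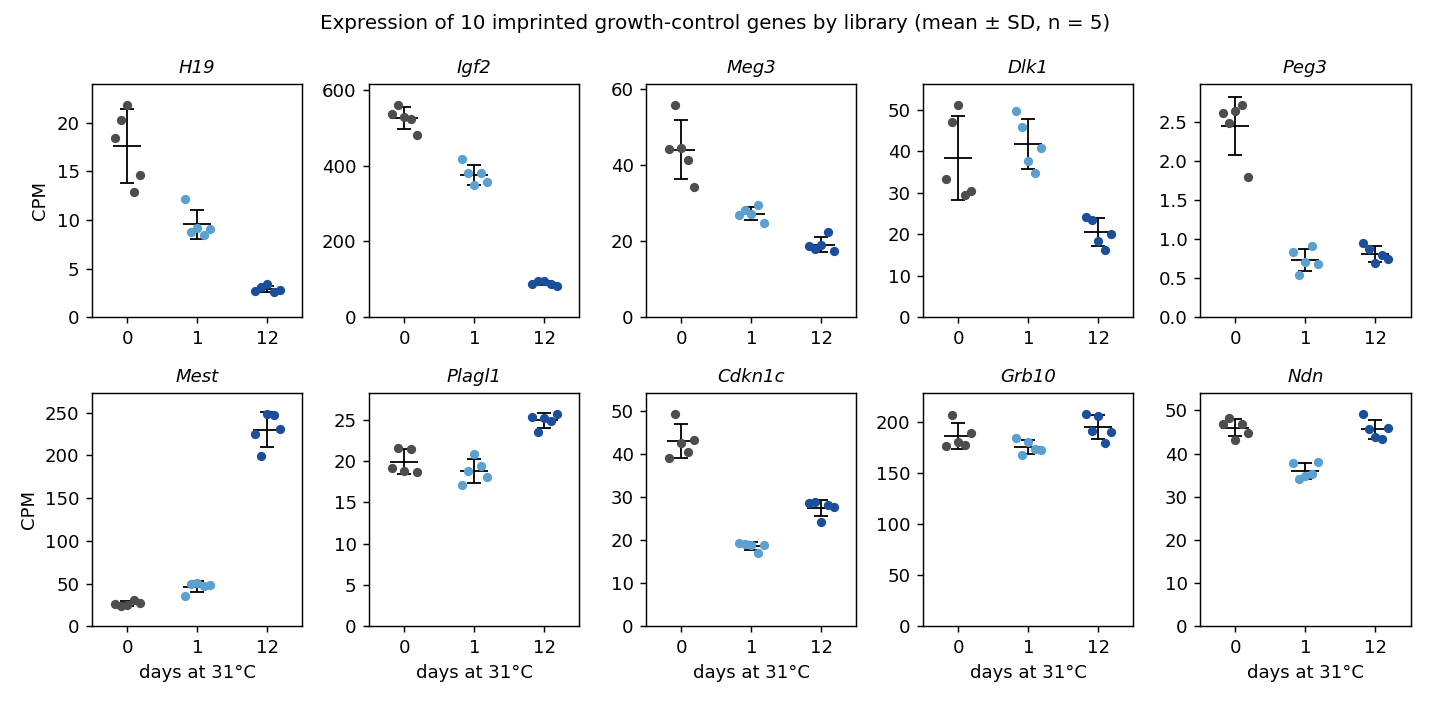
Expression in CPM (vertical axes, each starting at 0) of the 10 genes in every library against days at 31°C, with points for libraries and bars for the mean ± SD (n = 5). H19 and Igf2 stepped down at both times, Mest stepped up to between 199 and 249 CPM at day 12, and Grb10 overlapped between all groups.

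These directions hold under the TMM scaling, and the scaling matters for some of the genes. For qPCR the study used Hprt alone or geometric means of several genes. Of 6 reference genes planned here, 4 were found (B2m, Gapdh, Hprt and Tbp), all of them used in the study's qPCR. Scaling by their summed counts moved the median of all genes at day 12 to 1.57 on the log2 scale. B2m supplied 72.7% of that sum at day 0 and itself went from 3718 CPM to 855 CPM at day 12. Under that scaling Meg3 (0.34), Dlk1 (0.66), Cdkn1c (0.92) and Ndn (1.55) had log2 fold changes above 0 at day 12 but below the median of all genes. H19 (-1.04) and Igf2 (-0.99) stayed below 0, while Peg3 (-0.03) was close to 0 and lost its call. Genes named below whose day 12 difference under TMM was smaller than this shift turned above 0 as well, such as Rian, Zrsr1, Ano1, Ppp1r9a, Igfbp4 and Tet1.

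Igf2 encodes a growth factor that acts through the type 1 insulin-like growth factor receptor and is paternally expressed. It lies at chr7:142650766-142666816 on the minus strand (mm10), and 62.8% of its exon bases also belong to the same-strand gene model Gm49394, so that its counts could be divided between the models. Igf2 was at 536, 560, 529, 522 and 481 CPM in the 5 day 0 libraries, at 417, 379, 348, 380 and 357 CPM at day 1, and at 88.1, 96.0, 96.4, 88.7 and 81.9 CPM at day 12. All day 1 libraries lay below all day 0 libraries, and all day 12 libraries lay far below both. At day 1 the log2 difference of -0.48 ± 0.05 (SE) had an adjusted p of 1.93e-09 in edgeR's quasi-likelihood test, but the 1.40-fold difference was under the 1.5-fold limit. At day 12 Igf2 was 5.83-fold lower than at day 0 (log2 fold change -2.54 ± 0.05, adjusted p = 9.96e-23).

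H19 is a long noncoding RNA expressed from the maternal copy of the same cluster (chr7:142575529-142578143, minus strand), and 3.42% of its exon bases are shared with other models on its strand, Mir675 among them. It was at 18.4, 20.3, 21.9, 12.9 and 14.6 CPM at day 0, at 12.2, 8.72, 9.19, 8.51 and 9.13 CPM at day 1, and at 2.75, 3.13, 3.38, 2.59 and 2.80 CPM at day 12. The groups did not overlap, and the highest day 1 library lay just below the lowest day 0 library. H19 fell 1.85-fold at day 1 (log2 fold change -0.89 ± 0.12, adjusted p = 2.56e-07) and 6.02-fold at day 12 (-2.59 ± 0.13, adjusted p = 4.74e-15).

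The ratio of H19 to Igf2 counts within a library does not depend on the scaling. Its log2 mean was -4.92 ± 0.28 (SD, n = 5) at day 0, -5.31 ± 0.16 at day 1 and -4.95 ± 0.10 at day 12. Day 12 differed from day 0 by -0.02, with day 12 libraries inside the range of the day 0 libraries (exact permutation test, two-sided p = 0.873, adjusted p = 0.873 over 6 ratio tests). The day 1 ratio was lower than the day 0 ratio by a log2 difference of -0.38, which missed the threshold after adjustment (exact permutation p = 0.0476, adjusted p = 0.0714) and passed it without replicate 4 of day 0 (-0.49, adjusted p = 0.0317). Day 12 was higher than day 1 by 0.36, with no overlap and the smallest p that 5 against 5 allows (exact permutation p = 0.00794, adjusted p = 0.0238). The labels number the libraries in 2 series, and among the 11 libraries of the larger series, where 4 are compared with 3, this difference was 0.29 and did not pass (adjusted exact permutation p = 0.171). With so few libraries the adjusted test can hardly pass, so it cannot show whether the difference depends on the series.

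Meg3 and Dlk1 share a cluster on chromosome 12. Dlk1 (chr12:109452823-109463336, plus strand), also known as preadipocyte factor 1, encodes a transmembrane protein that holds preadipocytes back from differentiating and is paternally expressed. Dlk1 was at 33.3, 47.1, 51.2, 29.5 and 30.4 CPM at day 0, at 49.7, 45.8, 37.7, 34.6 and 40.7 CPM at day 1, and at 24.1, 23.5, 18.4, 16.1 and 20.1 CPM at day 12. Day 0 libraries were spread widely and covered the whole day 1 range, whereas every day 12 library lay below all others. Dlk1 differed by 0.12 ± 0.13 on the log2 scale at day 1 (adjusted p = 0.402) and was 1.87-fold lower at day 12 (-0.90 ± 0.13, adjusted p = 1.64e-06).

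Meg3 (chr12:109541001-109571726, plus strand) is a maternally expressed long noncoding RNA with growth-suppressing activity. It was at 44.1, 55.8, 44.4, 41.4 and 34.4 CPM at day 0, at 27.0, 28.1, 27.1, 29.4 and 24.7 CPM at day 1, and at 18.7, 17.9, 19.1, 22.5 and 17.3 CPM at day 12. The 3 groups were fully separated. Meg3 fell 1.62-fold at day 1 (-0.69 ± 0.08, adjusted p = 9.75e-08) and 2.31-fold at day 12 (-1.21 ± 0.09, adjusted p = 5.61e-12).

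Meg3 was thus lower after 1 day at 31°C while Dlk1 was not called, and the ratio of their counts was tested directly. The log2 ratio of Meg3 to Dlk1 was 0.22 ± 0.27 (SD, n = 5) at day 0, -0.60 ± 0.25 at day 1 and -0.09 ± 0.36 at day 12. It was lower by -0.83 at day 1 with no overlap of libraries (exact permutation p = 0.00794, adjusted p = 0.0238 over the 6 ratio tests). At day 12 the difference from day 0 was -0.31 (exact permutation p = 0.151, adjusted p = 0.181), and from day 1 it was 0.52 (p = 0.0317, adjusted p = 0.0635, exact permutation). That last difference passed the threshold without replicate 4 of day 1 (0.61) or replicate 2 of day 12 (0.59), each with an adjusted exact permutation p of 0.0476. Among the 11 libraries of the larger number series the day 1 difference was -0.92 and did not pass (adjusted exact permutation p = 0.171). With 4 libraries against 3 and adjustment over 6 tests, this test can hardly pass at any size of difference. It therefore cannot show whether the difference depends on the series.

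**Figure D2:**
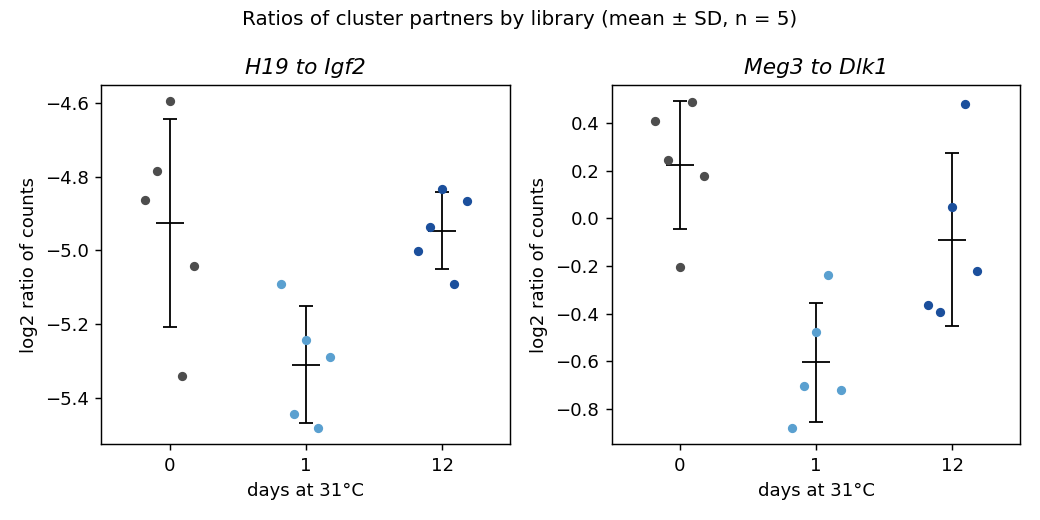
Log2 ratio of counts (vertical axes) of H19 to Igf2 and of Meg3 to Dlk1 in each library against days at 31°C, with points for libraries and bars for the mean ± SD (n = 5). Both ratios were lowest on average at day 1, at -5.31 and -0.60.

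Mest encodes a paternally expressed membrane protein of the alpha/beta-hydrolase fold that is known to be high in enlarging fat tissue. It lies at chr6:30723547-30748465 on the plus strand, and 23.1% of its exon bases lie opposite exons of Copg2. Mest was at 25.5, 24.0, 25.4, 31.1 and 27.7 CPM at day 0, at 35.6, 49.3, 50.7, 47.5 and 48.5 CPM at day 1, and at 225, 199, 249, 247 and 231 CPM at day 12. The groups were separated at both times, and the lowest day 12 library lay well above the highest day 1 library. Mest rose 1.73-fold at day 1 (0.79 ± 0.08, adjusted p = 2.9e-09) and 8.61-fold at day 12 (3.11 ± 0.08, adjusted p = 2e-20). Copg2, a coatomer subunit whose exons overlap, was at 58.5 CPM at day 0 and 48.7 CPM at day 12 (-0.26 ± 0.03), below the fold limit.

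Among the growth brakes, Cdkn1c encodes an inhibitor of cyclin-dependent kinases and is maternally expressed (chr7:143458339-143461050, minus strand, with 30.6% of its exon bases opposite the gene model Gm44732). It was at 39.1, 49.4, 42.5, 40.4 and 43.4 CPM at day 0, at 19.4, 19.2, 18.9, 17.1 and 18.9 CPM at day 1, and at 28.6, 28.9, 24.2, 28.2 and 27.7 CPM at day 12. The day 1 libraries were lowest and the day 12 libraries lay between the other groups, with no overlap. Cdkn1c fell 2.29-fold at day 1 (-1.20 ± 0.06, adjusted p = 3.26e-15) and 1.56-fold at day 12 (-0.64 ± 0.05, adjusted p = 1.41e-10). The day 12 call was lost when libraries were scaled by total counts (-0.45) or by the geometric mean of Hprt and Tbp (-0.38). Between day 1 and day 12 the difference was 0.56 ± 0.06 (adjusted p = 6.93e-09), just under the fold limit, and without replicate 3 of day 12 it was 0.60 and passed it. It also passed under total counts (0.73), Hprt and Tbp (0.89) and the summed reference genes (2.01).

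Peg3 encodes a paternally expressed zinc finger protein (chr7:6703892-6730431, minus strand). It had the lowest level of the 10 genes, at 2.61, 2.49, 2.64, 2.72 and 1.80 CPM at day 0, 0.832, 0.542, 0.707, 0.907 and 0.676 CPM at day 1, and 0.952, 0.870, 0.692, 0.798 and 0.744 CPM at day 12. Both cooled groups lay below day 0 and overlapped each other. Peg3 fell 3.35-fold at day 1 (-1.74 ± 0.16, adjusted p = 5.55e-10) and 3.01-fold at day 12 (-1.59 ± 0.16, adjusted p = 1.55e-09), and day 12 differed from day 1 by 0.15 ± 0.17 (adjusted p = 0.442). The call at day 12 against day 0 was lost under the summed reference genes (-0.03).

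The remaining 3 genes passed the call limits in none of the comparisons under TMM. Between day 1 and day 12, Plagl1 (0.74) and Ndn (0.67) passed under Hprt and Tbp. Under the summed reference genes Plagl1 (1.86), Grb10 (1.61) and Ndn (1.80) passed in that comparison. Grb10, an adaptor protein that dampens signalling from the insulin and insulin-like growth factor receptors (chr11:11930508-12038683, minus strand), ranged from 176 to 206 CPM at day 0, from 167 to 184 CPM at day 1 and from 179 to 207 CPM at day 12. Its groups overlapped in every comparison, and its log2 fold change at day 12 against day 0 was 0.07 ± 0.04 (adjusted p = 0.157). Plagl1, a zinc finger transcription factor that restrains proliferation (chr10:13060504-13131694, plus strand), ranged from 18.7 to 21.6 CPM at day 0, from 17.1 to 20.9 CPM at day 1 and from 23.5 to 25.7 CPM at day 12. Day 12 did not overlap day 0, with a log2 fold change of 0.32 ± 0.05 (adjusted p = 5.04e-06) below the fold limit. Ndn, a growth suppressor of the MAGE family from the Prader-Willi region (chr7:62346569-62350262, plus strand), was between 43.1 and 48.2 CPM at day 0, 34.0 and 38.0 CPM at day 1, and 43.5 and 49.2 CPM at day 12. Its day 1 libraries lay below all others (-0.35 ± 0.04, adjusted p = 3.65e-08, below the fold limit), and the day 12 value against day 0 was -0.01 ± 0.04 under TMM, with a sign that turned under other scalings.

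**Figure D3:**
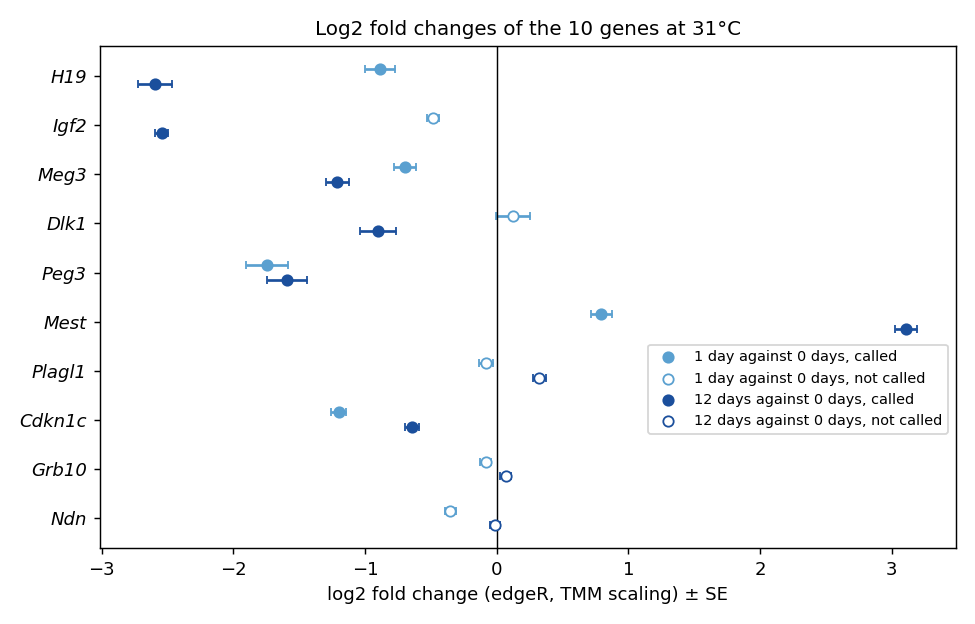
Log2 fold change (horizontal axis, edgeR with TMM scaling, bars ± SE) of each of the 10 genes after 1 and 12 days at 31°C against 0 days, with filled points for called genes. Mest lay farthest to the right at 3.11 and H19 and Igf2 farthest to the left at -2.59 and -2.54, all at day 12.

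The libraries of the compared groups did not overlap for 7 of the 10 genes at day 1, 8 at day 12 and 8 between day 1 and day 12. Over all genes tested these shares were 57.4%, 64.6% and 52.5%, so full separation of groups was common in these data.

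Compared per length, as CPM per kb of exon, the order of the 10 genes changed between groups. Exon lengths are from GENCODE M21, and the annotation used for counting is not given. Lengths may therefore not match the counts, and close ranks within a group are uncertain. Igf2 was highest at day 0 with 91.9 ± 5.02 CPM per kb (SD, n = 5), ahead of Cdkn1c with 21.1 ± 1.94 and Grb10 with 20.4 ± 1.38, whose libraries overlapped. Next came Ndn at 12.4 ± 0.54, then H19 at 7.16 ± 1.54, Mest at 6.78 ± 0.70 and Dlk1 at 6.76 ± 1.78, of which each overlapped the next. Plagl1 at 2.55 ± 0.19 and Meg3 at 2.43 ± 0.43 overlapped as well, and Peg3 was last at 0.184 ± 0.028. At day 1 Igf2 was still first at 65.7 ± 4.67 CPM per kb, followed by Grb10 at 19.3 ± 0.74 and Mest at 11.7 ± 1.55. At day 12 Mest was first at 58.3 ± 5.13 CPM per kb, then Grb10 at 21.4 ± 1.31 and Igf2 at 15.8 ± 1.06, with no overlap between these 3 genes. Peg3 was last in every group.

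The neighbours of the members in their clusters showed mixed directions. On chromosome 12, 3 of 7 tested neighbours of Dlk1 and Meg3 were called lower at day 12, and 1 was called higher. Over all tested genes 16.2% were called lower and 13% higher. The maternally expressed noncoding RNA Rian measured 34.0 ± 3.6 CPM at day 0 (SD, n = 5), 18 ± 1.3 CPM at day 1 and 17.7 ± 1.4 CPM at day 12 (log2 fold change -0.94 ± 0.06 at day 12, adjusted p = 2.79e-12). Mirg, a noncoding host of miRNAs, was called lower at low levels of 0.680 CPM at day 0 and 0.332 CPM at day 12, and its libraries overlapped between these groups. Dio3, the deiodinase that inactivates thyroid hormone, fell from 15.6 ± 2.8 to 8.98 ± 1.2 CPM (-0.80 ± 0.11). Begain, at the other end of the cluster, rose from 1.06 ± 0.27 to 3.81 ± 0.41 CPM (1.86 ± 0.15, adjusted p = 3.52e-11).

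On distal chromosome 7, 4 of 15 tested neighbours of H19, Igf2 and Cdkn1c were called lower at day 12 and the other 11 were not called. Beside this count and those that follow, 16.2% of all tested genes were called lower and 13% higher. Whether the neighbours differed from these shares was not tested. Ascl2, a basic helix-loop-helix transcription factor, fell from 1.43 ± 0.29 to 0.206 ± 0.057 CPM (-2.82 ± 0.24, adjusted p = 1.65e-10), and Cd81, a tetraspanin, from 709 ± 14 to 460 ± 11 CPM (-0.62 ± 0.03). Kcnq1ot1, the paternally expressed noncoding RNA that silences genes around Cdkn1c in cis, went from 22.8 ± 1.8 to 16.2 ± 0.93 CPM (-0.50 ± 0.07), below the fold limit. Near Mest on chromosome 6, 1 of 3 tested neighbours was called higher at day 12, namely Cpa4 at low levels of 0.0828 CPM at day 0 and 0.294 CPM at day 12. Near Grb10 on chromosome 11, 2 of 3 were called higher, among them Ikzf1, a zinc finger regulator of lymphoid cells, which went from 0.067 ± 0.073 to 2.2 ± 0.33 CPM (4.93 ± 0.39, adjusted p = 4.19e-11). Near Ndn 1 of 5 tested neighbours was called higher (Peg12), near Plagl1 1 of 3 was called higher, and the 1 tested neighbour of Peg3 had a log2 fold change of 0.16.

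**Figure D4:**
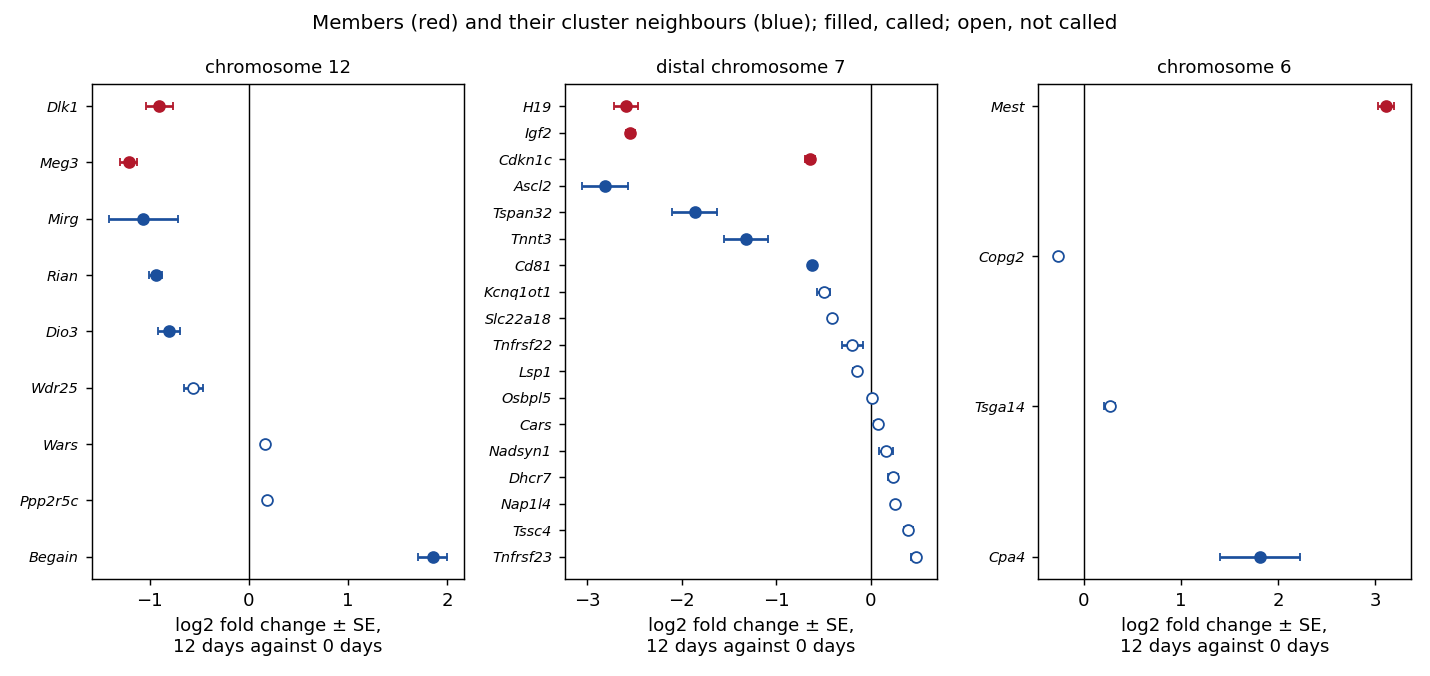
Log2 fold change at 12 days against 0 days at 31°C (horizontal axes, edgeR with TMM scaling, bars ± SE) for members in red and tested cluster neighbours in blue, in 3 clusters, with filled points for called genes. On chromosome 12 Begain (1.86) lay opposite to Meg3 (-1.21), and near Mest (3.11) the overlapping gene Copg2 was at -0.26.

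In a list of 78 other imprinted genes, 71 were in the table and 57 were tested. At day 12, 11 of 57 were called higher and 15 lower, beside 13% and 16.2% of all tested genes, and the median log2 fold change was 0.01, equal to that of all genes to 2 decimals. At day 1, 4 of 57 were called higher and 6 lower, beside 7.71% and 13.4% of all tested genes, so that the list was called no more often than genes in general. Besides Ascl2, the largest called differences at day 12 were in Slc22a2, an organic cation transporter that rose from 0.335 ± 0.12 to 1.86 ± 0.20 CPM (2.46 ± 0.23), Peg12, which rose from 0.583 ± 0.087 to 2.87 ± 0.28 CPM (2.29 ± 0.16), and Tspan32, which fell from 1.63 ± 0.42 to 0.457 ± 0.19 CPM (-1.86 ± 0.24). Peg10, a gene of retrotransposon origin needed for the placenta, rose from 3.06 ± 0.36 to 6.82 ± 0.95 CPM (1.16 ± 0.10). Sfmbt2, a Polycomb group gene, rose from 2.86 ± 0.40 to 6.21 ± 0.60 CPM (1.12 ± 0.12), and the amino acid transporter Slc38a4 rose from 0.592 ± 0.23 to 1.28 ± 0.29 CPM (1.12 ± 0.24). Zrsr1, a splicing factor gene inside an intron of Commd1, fell from 54.8 ± 1.4 to 27.0 ± 2.0 CPM (-1.02 ± 0.04), and Ano1, a calcium-activated chloride channel, fell from 29.4 ± 1.6 to 15.2 ± 1.4 CPM (-0.96 ± 0.05). At day 1 the largest called differences among genes reaching 1 CPM were in Ppp1r9a (-1.02 ± 0.10), Ascl2 (-0.99 ± 0.21) and Rian (-0.92 ± 0.07), all of which were lower.

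Among genes linked to insulin-like growth factors, more were called lower than higher after 12 days. The list held Igf1, receptors and binding proteins, and also Igf2bp1, Igf2bp2, Igf2bp3, Irs1, Irs2, Pappa, Pappa2, Stc1 and Stc2. All 19 of the list were tested, and 10 were called lower (16.2% of all tested genes were) and 1 higher (13% of all), with a median log2 fold change of -0.59. Igf1, the other ligand, went from 223 ± 11 CPM at day 0 to 215 ± 7.0 at day 1 and 76.2 ± 3.7 at day 12 (-1.55 ± 0.04, adjusted p = 2.99e-21). Igf1r, the signalling receptor, differed by 0.05 ± 0.05 at day 12 (adjusted p = 0.327), whereas Igf2r, an imprinted receptor that clears IGF2 and is also in the list of other imprinted genes, fell from 341 ± 14 to 204 ± 6.1 CPM (-0.74 ± 0.03). Of the binding proteins, Igfbp3 fell at day 1 (-1.02 ± 0.05) and day 12 (-1.79 ± 0.05), from 95.0 ± 5.4 to 46.9 ± 3.1 and 27.4 ± 2.2 CPM. Igfbp4 fell from 1764 ± 50 to 600.0 ± 17 CPM at day 12 (-1.56 ± 0.03), and Igfbp5 was called higher (0.74). Pappa2, a protease that releases insulin-like growth factors from binding proteins, fell from 34.8 ± 2.9 to 6.84 ± 0.47 CPM (-2.35 ± 0.08), and Stc2, an inhibitor of such proteases, fell from 32.5 ± 2.3 to 8.89 ± 0.35 CPM (-1.87 ± 0.05).

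Of 17 factors that keep imprints and chromatin marks in place, 16 were in the table and tested, with 2 called higher and 1 lower at day 12, beside 13% and 16.2% of all tested genes, so that these calls are no more than genes in general showed. Uhrf1, which brings the maintenance methyltransferase to replicating DNA, rose from 6.48 ± 1.0 to 16.9 ± 0.44 CPM (1.38 ± 0.08), and Ezh2, the catalytic subunit of Polycomb repressive complex 2, rose from 8.62 ± 1.0 to 18.9 ± 0.53 CPM (1.13 ± 0.06). Tet1, which oxidises methylated cytosine, fell from 2.61 ± 0.41 to 1.39 ± 0.26 at day 1 and was at 1.46 ± 0.12 CPM at day 12 (-0.84 ± 0.14), a call that was lost when libraries were scaled by Hprt and Tbp (-0.58).

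Over the 15 libraries and 12130 genes, the genes whose log2 CPM followed H19 most closely were Klhl8, Glb1 and Lingo1, with Pearson correlations of 0.992, 0.989 and 0.989. For Igf2 they were Rcn3, Ece2 and C1s, at 0.998, 0.997 and 0.997, and for Dlk1 they were Myoc, Pnpla7 and Tcea3, at 0.940, 0.937 and 0.936. These values describe the 15 libraries, which share the 3 group means. The closest genes moved less than the members at day 12, with log2 fold changes of -1.02 for Klhl8 and -1.46 for Rcn3.

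Markers of other cell types moved between the groups as well. Beside the calls given below, 13% of all tested genes were called higher and 16.2% lower at day 12. In such bulk samples fewer cells of a type and less RNA per cell cannot be told apart. The summed level of 10 adipocyte markers was between 4587 and 5273 CPM at day 0, between 5696 and 6365 CPM at day 1 and between 5056 and 5632 CPM at day 12, and 5 of the 10 were called lower and 2 higher at day 12. Adipoq went from 1095 to 1126 and 464 CPM. Of 10 stromal markers, 8 were tested and 3 were called lower at day 12, with sums between 10774 and 11248 CPM at day 0 and between 7042 and 7390 CPM at day 12, while Pdgfra was at 562 and 712 CPM and Thy1 at 137 and 145 CPM. Chondrocyte markers were present, with sums between 3814 and 4552 CPM at day 0 and between 1331 and 1440 CPM at day 12, when 3 of 7 were called lower and 2 higher, and Acan went from 56.3 to 28.8 CPM. The 7 markers had a median log2 fold change of 0.29 at day 12, with 3 below 0. The fall of the sum was thus not shared by most of the list, and Acan made up little of that sum. All 6 proliferation markers were called higher at day 12, with sums between 52.6 and 65.2 CPM at day 0 and between 165 and 200 CPM at day 12, and Mki67 went from 12.6 to 45.3 CPM. Mesothelial markers summed to between 2.06 and 2.25 CPM at day 0 and between 23.4 and 38.3 CPM at day 12, when 1 of 3 tested was called higher, namely Msln, which went from 0.628 to 29.3 CPM. Leukocyte markers summed to between 26.5 and 33.7 CPM at day 0 and between 30.0 and 34.3 CPM at day 12, when 2 of 5 tested were called higher, with Ptprc at 0.0288 and 0.0163 CPM. Endothelial markers summed to between 1.01 and 1.30 CPM at day 0 and between 1.07 and 1.77 CPM at day 12, when 2 of 4 tested were called higher and 1 lower, and Pecam1 was at 0.324 and 0.810 CPM. Smooth muscle or pericyte markers summed to between 380 and 436 CPM at day 0 and between 419 and 534 CPM at day 12, although 3 of 5 were called lower at day 12. Skeletal muscle markers summed to between 1.98 and 2.58 CPM at day 0 and between 0.527 and 1.23 CPM at day 12, when 2 of 3 tested were called lower. At day 1 the sums were between 8699 and 9263 CPM for stromal, 4039 and 4189 for chondrocyte and 62.3 and 74.6 for proliferation markers. They were between 1.79 and 2.15 CPM for mesothelial, 42.4 and 48.4 for leukocyte and 0.907 and 1.58 for endothelial markers. Smooth muscle or pericyte sums were between 488 and 650 CPM at day 1, and skeletal muscle sums between 1.49 and 2.47 CPM. The part of these differences in the levels of the imprinted genes was not tested.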

How the data were processed

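RNA-seq libraries of cultured adipocytes were compared after 0, 1 and 12 days at 31°C. Per the labels and the study's methods, the authors aligned reads to mm10 with TopHat2 2.0.13 and Bowtie2 2.2.1 and counted reads per gene with HTSeq, and these deposited raw counts are the values used here. The annotation release and the strand setting of the counting are not given in the sources used here, so reads of overlapping genes may be shared or left out. The deposited regularized log values and the tables of the authors' own DESeq2 comparisons, which hold fold changes and p-values, were not used.

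Counts of all 15 libraries were fitted together with edgeR 4.0.16 in R 4.3.3 (TMM, filterByExpr at a minimum count of 10, glmQLFit and glmQLFTest, group only), with Benjamini-Hochberg adjustment over the 14293 genes tested. SE is the log2 fold change divided by the square root of the F statistic. Log2 ratios of 2 genes used counts with 0.5 added and two-sided exact permutation tests of 5 against 5 libraries, adjusted over 6 tests. The fit was tested on simulated counts. Total counts were 92387376 to 133270973 at day 0, 74430465 to 105322757 at day 1 and 64648178 to 91338649 at day 12, and a count of 0 would allow up to 0.0428 CPM in the shallowest library (3 counts, counting error only). No libraries of a group agreed within sampling noise. Gene positions and exon lengths were taken from GENCODE M21 (GRCm38, the build mm10), and all 10 members matched by symbol. Promoter entries from RefSeq were matched for 8 of the 10 members.

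The members and all gene lists were chosen with earlier results of these data known. Besides the 10 members, the genes named were called genes reaching a mean of 1 CPM in some group: from the other imprinted genes the 10 largest at day 12 and the 3 largest at day 1, and from the growth factor partners and the upkeep factors the 4 largest at day 12. The 3 genes most correlated with H19, Igf2 and Dlk1 over the 15 libraries and the defining cell type markers were also named. Other names (Copg2, Mirg, Dio3, Cd81, Kcnq1ot1, Cpa4, Ikzf1, Igf1, Igf1r, Igf2r and Igfbp5) were chosen after their values were seen. Alternatives covered other scalings, filters, DESeq2 1.42.0, the call limits, the libraries fitted, the replicate number as a block, the library number series, and leaving out each library. A scaling by Hprt and Tbp was added after seeing the data.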

Additional observations from a re-analysis of the deposited data

Results flagged for a closer look

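In 5 of the 30 gene and group combinations tested over the 10 genes, a single library stood apart from the other 4 by Dixon's criterion, where chance flags about 1 in 20. At day 1, replicate 1 was highest for H19 (12.2 CPM) and lowest for Mest (35.6 CPM), and replicate 4 was lowest for Cdkn1c (17.1 CPM). At day 12, replicate 3 was lowest for Cdkn1c (24.2 CPM), and at day 0, replicate 5 was lowest for Peg3 (1.80 CPM).

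For 4 genes the log2 fold change against day 0 differed between 12 days and 1 day at 31°C by over 1.5-fold in edgeR's quasi-likelihood test of that difference. Of the other 6 genes, 5 had an adjusted p under 0.05 for it and a smaller fold (Meg3, Plagl1, Cdkn1c, Grb10 and Ndn), and Peg3 had an adjusted p of 0.442. Among the 4 genes the difference was -1.71 for H19 (adjusted p = 4.3e-11), -2.06 for Igf2 (adjusted p = 1.22e-20), -1.02 for Dlk1 (adjusted p = 3.75e-07) and 2.31 for Mest (adjusted p = 7.12e-18), and in each of the 4 genes the day 12 libraries did not overlap the day 1 libraries.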

How the results depend on the processing

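Counts of called members were the most dependent on scaling. Under the summed reference genes the calls at day 12 were 6 upward and 2 downward, and from day 1 to day 12 they were 7 upward and 1 downward. Members called higher between day 1 and day 12 numbered 2 under total counts, 4 under Hprt and Tbp, 5 with the adjusted p alone, and 1 to 2 when each library was left out, the 2 being without replicate 3 of day 12. With the adjusted p alone 2 were called higher at day 12. Over all genes the calls at day 12 were 1852 higher and 2320 lower under TMM, 2982 and 1668 under total counts, 3563 and 1509 under Hprt and Tbp, 12859 and 243 under the summed reference genes, and 5608 and 5342 with the adjusted p alone. Between day 1 and day 12 they were 1510 and 1219, 2248 and 843, 3529 and 622, 13400 and 85, and 4908 and 4690 in that order. At day 1 they were 1102 and 1918 under TMM, 1613 and 1532 under the summed reference genes, and 5049 and 5177 with the adjusted p alone. The median of all genes at day 12 was moved to 0.21 under total counts and 0.27 under Hprt and Tbp.

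Signs turned under the summed reference genes at day 12 against day 0 for Meg3 (0.34), Dlk1 (0.66), Cdkn1c (0.92), Ndn (1.55), Zrsr1 (0.54), Ano1 (0.61), Ppp1r9a (0.77), Rian (0.62), Igfbp4 (0.0063) and Tet1 (0.72), all below the shifted median of all genes. They also turned between day 1 and day 12 for Meg3 (0.93), Dlk1 (0.44), Tspan32 (0.13), Zrsr1 (0.74), Ano1 (1.13), Rian (1.44), Stc2 (0.35), Igfbp3 (0.68) and Igfbp4 (0.13), and at day 1 for Plagl1 (0.026) and Grb10 (0.019). Ndn at day 12 turned under total counts (0.18) and Hprt and Tbp (0.25) and ran from -0.0397 to 0.0056 without single libraries. Between day 1 and day 12, Rian turned under total counts (0.16) and Hprt and Tbp (0.32) and ran from -0.058 to 0.016 without single libraries, Ano1 turned under Hprt and Tbp (0.0073), and Tet1 was -0.034 among the 11 libraries of the larger number series and ran from -0.0055 to 0.18 without single libraries.

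The log2 ratio of H19 to Igf2 at day 12 against day 0 was 0.00029 with 5 counts added and ran from -0.12 to 0.061 without single libraries. At day 1 it ran from -0.49 to -0.30 and passed the threshold without replicate 4 of day 0 (adjusted exact permutation p = 0.0317). The Meg3 to Dlk1 difference between day 1 and day 12 ran from 0.37 to 0.61 and passed without replicate 4 of day 1 or replicate 2 of day 12. In the larger number series the H19 to Igf2 difference between day 1 and day 12 (0.29) and the Meg3 to Dlk1 difference at day 1 (-0.92) no longer passed (adjusted exact permutation p = 0.171 for both). With 4 libraries against 3 the adjusted test can hardly pass, so these 2 losses do not show dependence on the series. The cause of the other changes was not tested.

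Same-numbered libraries of different groups did not deviate together, with correlations from -0.0255 to 0.0436, so the replicate number was not taken as a pairing. With the replicate number as a block the same differences of 0.36 for H19 to Igf2 between day 1 and day 12 and -0.83 for Meg3 to Dlk1 at day 1 had an adjusted exact permutation p of 0.0938, where 5 pairs cannot go below a raw p of 0.0625, and the counts of called members stayed as they were.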
